A study of Mus musculus with 18 samples.

Results

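Individual tRNAs of the mouse brain were compared between Ftsj1 knockout (KO) and wild-type (WT) animals in libraries of total tRNA. Each row of the deposited table is named by an amino acid with a number and carries an anticodon, and it was tested as a feature of its own, not as part of an anticodon sum. Of 147 rows listed, 105 had a mean of 10 or more reads over the 6 total tRNA libraries and were tested, and the other 42 were not. The groups were 3 WT and 3 Ftsj1 KO mice, all male, 8 weeks old and of the C57BL/6 strain, with 1 library of each kind from each whole brain. The sources used here do not give the design of the KO allele or the litters, and a tRNA library does not measure Ftsj1 messenger RNA.

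A tRNA reads a codon through its anticodon. tRNAs that share an anticodon but differ elsewhere in sequence are called isodecoders, and all rows with 1 amino acid and 1 anticodon are called a family here. FTSJ1 is a methyltransferase that adds methyl groups to ribose in the anticodon loop of a few tRNAs, of which tRNA-Phe is the best known, and loss of the human gene causes X-linked intellectual disability. Reverse transcriptase meets the modifications of a tRNA when a library is made, so a read count can change with modification as well as with the amount of tRNA.

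The counts of all listed rows summed to 1505291 to 2000422 reads per total tRNA library, and reads that matched no listed row are not counted there. The 105 tested rows fell into 50 families, of which 28 had more than 1 tested row and together held 83 rows. The most abundant row of each family, called the leading row, took most of the reads: the 50 leading rows together held 92.1% ± 0.199 of the WT reads and 92.0% ± 0.145 of the KO reads (SD, n = 3 mice). The 3 rows just above the threshold were Lys4, Lys24 and Lys3, with means of 10.2, 10.3 and 11.3 reads. The 3 just below it were Ile4, Lys9 and Gly11, with means of 9.17, 8.00 and 7.67 reads. Levels below are RPM, reads scaled to a library of 1000000 tRNA reads, and shares are a row's percentage of the tested reads of its own family. Log2 fold changes are KO over WT after TMM scaling, a correction for composition, and scaling to total reads alone moved the median of all rows up by 0.11. A fall or rise by a value with an SE is a log2 fold change throughout.

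In KO brain, 17 of the 105 rows (16.2%) passed an adjusted p of 0.05 in edgeR's quasi-likelihood test, 9 of them higher (8.57%) and 8 lower (7.62%). With the mouse number as a block, a pairing that the labels do not state, the counts were 19 higher and 8 lower. Some of the higher rows added by the block reached the filter on mean reads only through the KO libraries, so their rise is tied to it. The lower rows had 2190 to 143810 mean reads and the higher rows 35.8 to 1908. This split depends on scaling: with total reads 17 rows were higher and 2 lower, and the higher rows then included the abundant rows Arg7, Thr9, Leu12, Gln9 and Ser12. Phe2 stood far from the rest, at a log2 fold change of -1.36, and the other 7 lower rows lay between -0.35 and -0.24. Levels of the WT and KO mice did not overlap in 33 of the 105 rows (31.4%).

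**Figure D1:**
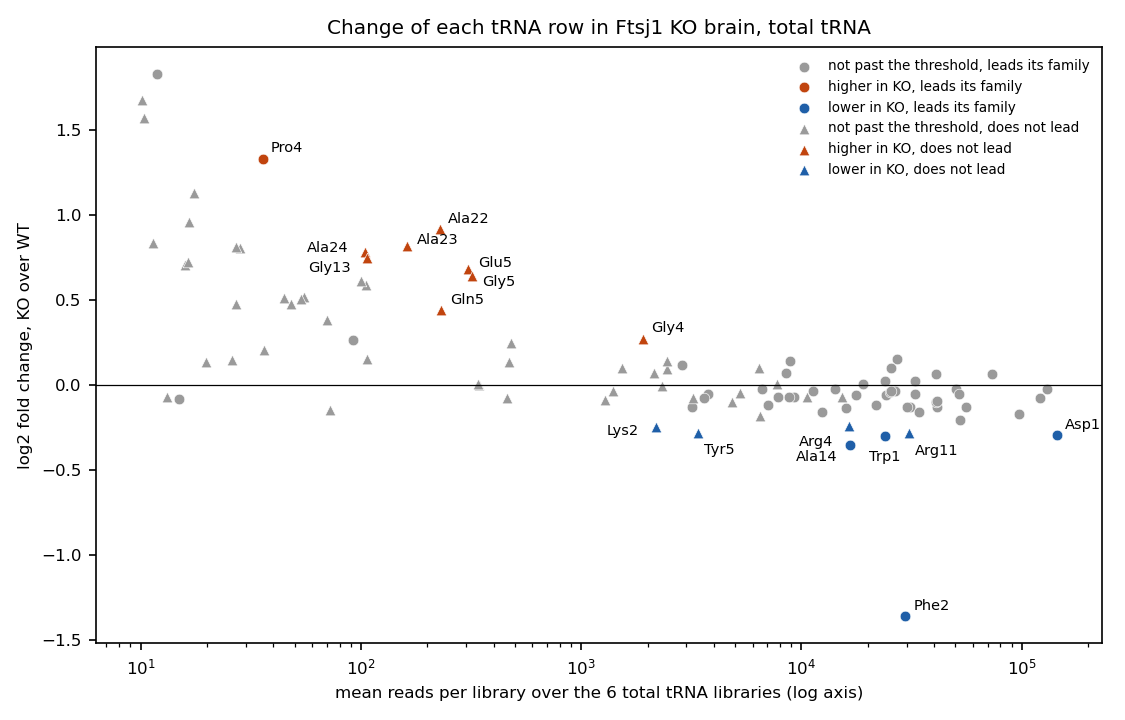
Log2 fold change (KO over WT, TMM-scaled) of the 105 tested rows against their mean reads per library on a log axis. Circles are the most abundant row of a family and triangles the other rows, with rows past an adjusted p of 0.05 in colour. Phe2 lies alone at -1.36, and most rows under 1000 reads lie above 0.

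The families in which FTSJ1 is known or proposed to methylate the ribose at the wobble base, the first base of the anticodon, were Phe-GAA, Trp-CCA, Leu-CAA and Leu-TAA. They held 6 listed and 5 tested rows, of which 2 were lower and none higher, beside 7.62% lower and 8.57% higher over all tested rows. Their median log2 fold change was -0.13, beside -0.01 over all tested rows. Phe2 was the only Phe-GAA row listed, although the RefSeq gene table of mouse assembly GRCm38.p6 names 7 Phe-GAA genes, so this family has no isodecoder contrast in these counts. Phe2 measured 25513, 27246 and 24771 RPM in the WT mice and 11748, 10997 and 9893 in the KO mice. Every KO mouse was below every WT mouse, and the fall was 2.57-fold (log2 fold change -1.36, SE 0.08, adjusted p = 8.66e-15, edgeR's quasi-likelihood test).

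Trp1 was likewise the only row of its family, tRNA-Trp with anticodon CCA, for which RefSeq names 8 genes. It measured 15988, 14120 and 16266 RPM in WT and 13878, 14226 and 12627 in KO. The groups overlapped by 1 mouse on each side, WT mouse 2 being lower than KO mouse 2. Trp1 fell by 0.30 (SE 0.07, adjusted p = 0.00444, edgeR), a call that was lost with scaling to total reads (-0.19, adjusted p = 0.0831) and held in the other 14 alternatives (adjusted p from 0.000536). The leucine rows did not pass the test: the log2 fold change was -0.07 for Leu3, the only tested Leu-CAA row, -0.13 for Leu6, the leading Leu-TAA row, and 0.52 (SE 0.31) for Leu9, a Leu-TAA row with a mean of 55.0 reads, which was called higher with the mouse number as a block (0.53, adjusted p = 0.0367, edgeR).

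The families were also tested as sums, and 4 of 50 (8%) passed: Phe-GAA, Trp-CCA and Ala-AGC lower, and Arg-CCT higher. The sums had TMM factors of their own, so the log2 fold change of a sum is not directly comparable with that of a row. Phe-GAA alone was called without WT mouse 1 or WT mouse 3 (1 family in each case), Ala-AGC and Arg-CCT were lost without KO mouse 2, Trp-CCA was lost without KO mouse 3, and Ala-AGC and Trp-CCA were lost with scaling to total reads. Ala-AGC was the only one of these with more than 1 tested row. Its sum fell by 0.22 (SE 0.06, adjusted p = 0.0111, edgeR), and its leading row Ala14 carried most of that. Ala14 measured 11294, 10191 and 11087 RPM in WT and 9140, 9403 and 9074 in KO, with no overlap, and fell by 0.35 (SE 0.07, adjusted p = 0.000491, edgeR). The mean level of the family fell by 1819 RPM and that of Ala14 fell by 1652 RPM, which is 90.8% of the family's loss.

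Ala12, the next row of Ala-AGC, held 10.5% of the loss and was at -0.18 (SE 0.07, adjusted p = 0.0641). Its WT levels were 4268, 3652 and 4024 RPM and its KO levels 3762, 3802 and 3805, so that the groups overlapped. Ala14 made up 71.8% ± 0.565 of its family in WT and 69.2% ± 0.285 in KO, and Ala12 made up 26.3% ± 0.526 and 28.5% ± 0.406 (SD, n = 3). Each of these shares was apart in all mice, which gives p = 0.1 in a two-sided exact permutation test, the smallest value that 3 mice against 3 allow, and this holds for every share given with that p below. Of the scarce rows, Ala1 was at -0.08 (SE 0.11) on the log2 scale and Ala10 at 0.81 (SE 0.38), neither past the row test, and Ala10 differed from its family in the test below.

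Arg7 was the only tested row of Arg-CCT. It measured 15085, 14447 and 14802 RPM in WT and 17991, 18583 and 16819 in KO, with no overlap. The test on family sums called it higher (0.23, SE 0.06, adjusted p = 0.0111, edgeR), and the test on rows did not (0.15, SE 0.07, adjusted p = 0.12). The counts are the same in both, and the TMM factors differ: those of the KO libraries were 1.02, 1.07 and 1.03 over rows and 1.01, 1.03 and 1.01 over family sums.

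Whether rows of a family changed unequally was tested in edgeR by setting each row against the change of its whole family. An F test over the rows of a family passed in 15 of the 28 families (53.6%), and 15 of the 83 rows (18.1%) differed from their family on their own, 14 of them above it (16.9%) and 1 below it (1.2%). A leading row holds most of the reads that set its family's change, so in this fit it can hardly differ from it: Asp1 was at -0.00061 and Gly6 at -0.00029 relative to their families. Limma-voom, where a row is set against the other rows of its family, called 14 rows, among them the leading rows Ala18, Asp1, Gln3, Glu1, Gly3, Gly12 and Tyr2.

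Tyr5 was the row below its family in the edgeR test of rows against families. tRNA-Tyr carries queuosine, a modified guanosine at the wobble base, and the family Tyr-GTA has Tyr2 as its leading row. Tyr5 measured 2119, 2102 and 2271 RPM in WT and 1903, 1792 and 2062 in KO, each KO mouse below each WT mouse. It fell by 0.28 (SE 0.07, adjusted p = 0.0102) and by 0.33 relative to its family (SE 0.09, adjusted p = 0.00925, edgeR). Tyr2 was at 0.06 (SE 0.08) and its mean level was higher by 5313 RPM in KO without passing the test. The share of Tyr5 in its family was 5.01% ± 0.245 (SD) in the WT group and 4.01% ± 0.621 in the KO group (n = 3, exact permutation p = 0.1). Both calls on Tyr5 were lost without KO mouse 2 (log2 fold change -0.20, adjusted p = 0.149, and -0.25 relative to the family, adjusted p = 0.117), the first also without WT mouse 2 (-0.29, adjusted p = 0.0935) and with scaling to total reads (-0.17, adjusted p = 0.101), and the second without WT mouse 3 (-0.29, adjusted p = 0.056).

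The arginine families with anticodons CCG and TCG each consist of a pair of abundant rows, and in each the smaller row was lower while the leading row did not pass the test. In Arg-CCG, Arg4 measured 10824, 9970 and 10081 RPM in WT and 9908, 8668 and 9668 in KO, with no overlap, and fell by 0.24 (SE 0.07, adjusted p = 0.0203, edgeR). Its partner Arg6 was at 0.02 (SE 0.07). In RPM, which is not TMM-scaled, the mean level of Arg4 decreased by 877 and that of Arg6 was higher by 1342. The family sum was at -0.01 on the log2 scale, with the TMM factors of the sums and not those of the rows. The share of Arg4 in the family was 45.1%, 42.8% and 41.1% in WT and 39.1%, 35.7% and 41.0% in KO (exact permutation p = 0.1).

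In Arg-TCG, Arg11 measured 18794, 19568 and 20102 RPM in WT and 19375, 15696 and 16901 in KO. KO mouse 1 lay within the WT range and the other KO mice below it. Arg11 fell by 0.28 (SE 0.08, adjusted p = 0.0154, edgeR), while its partner Arg12 was at -0.10 (SE 0.07). The share of Arg11 was 44.5% ± 0.898 (SD) in the WT group and 41.3% ± 2.13 in the KO group (n = 3, exact permutation p = 0.1). Neither Arg4 (-0.15, SE 0.08, adjusted p = 0.2) nor Arg11 (-0.10, SE 0.09, adjusted p = 0.555) passed the test against its family, although the F test over the rows of Arg-CCG did (adjusted p = 0.047). Without KO mouse 2, Arg4 was at -0.15 (adjusted p = 0.262) and Arg11 at -0.18 (adjusted p = 0.19). With scaling to total reads Arg4 was at -0.13 (adjusted p = 0.184) and Arg11 at -0.17 (adjusted p = 0.113), and both calls were also lost with a mean of 100 reads or more and with the TMM factors of the family sums.

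Asp1, the leading row of Asp-GTC, another queuosine tRNA, was the most abundant row that passed. It measured 93990, 91167 and 92160 RPM in WT and 72195, 80673 and 91720 in KO, where KO mouse 3 was at the WT level. It fell by 0.29 (SE 0.09, adjusted p = 0.0203, edgeR). Lys2, a Lys-CTT row, fell by 0.25 (SE 0.08, adjusted p = 0.0395), with 1521, 1356 and 1262 RPM in WT and 1322, 1186 and 1265 in KO. Its groups overlapped, and its leading row Lys6 was at 0.02 (SE 0.08). The calls on Asp1 and Lys2 were each lost in 7 of 15 alternatives, among them the fits without WT mouse 1, WT mouse 2 or KO mouse 2 (adjusted p 0.0981, 0.15 and 0.119 for Asp1 and 0.23, 0.189 and 0.262 for Lys2). Both were also lost with scaling to total reads (-0.18, adjusted p = 0.113 for Asp1 and -0.13, adjusted p = 0.253 for Lys2, edgeR). The same held with a mean of 100 reads or more (0.0535 and 0.0852) and with the TMM factors of the family sums (0.0749 and 0.141).

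**Figure D2:**
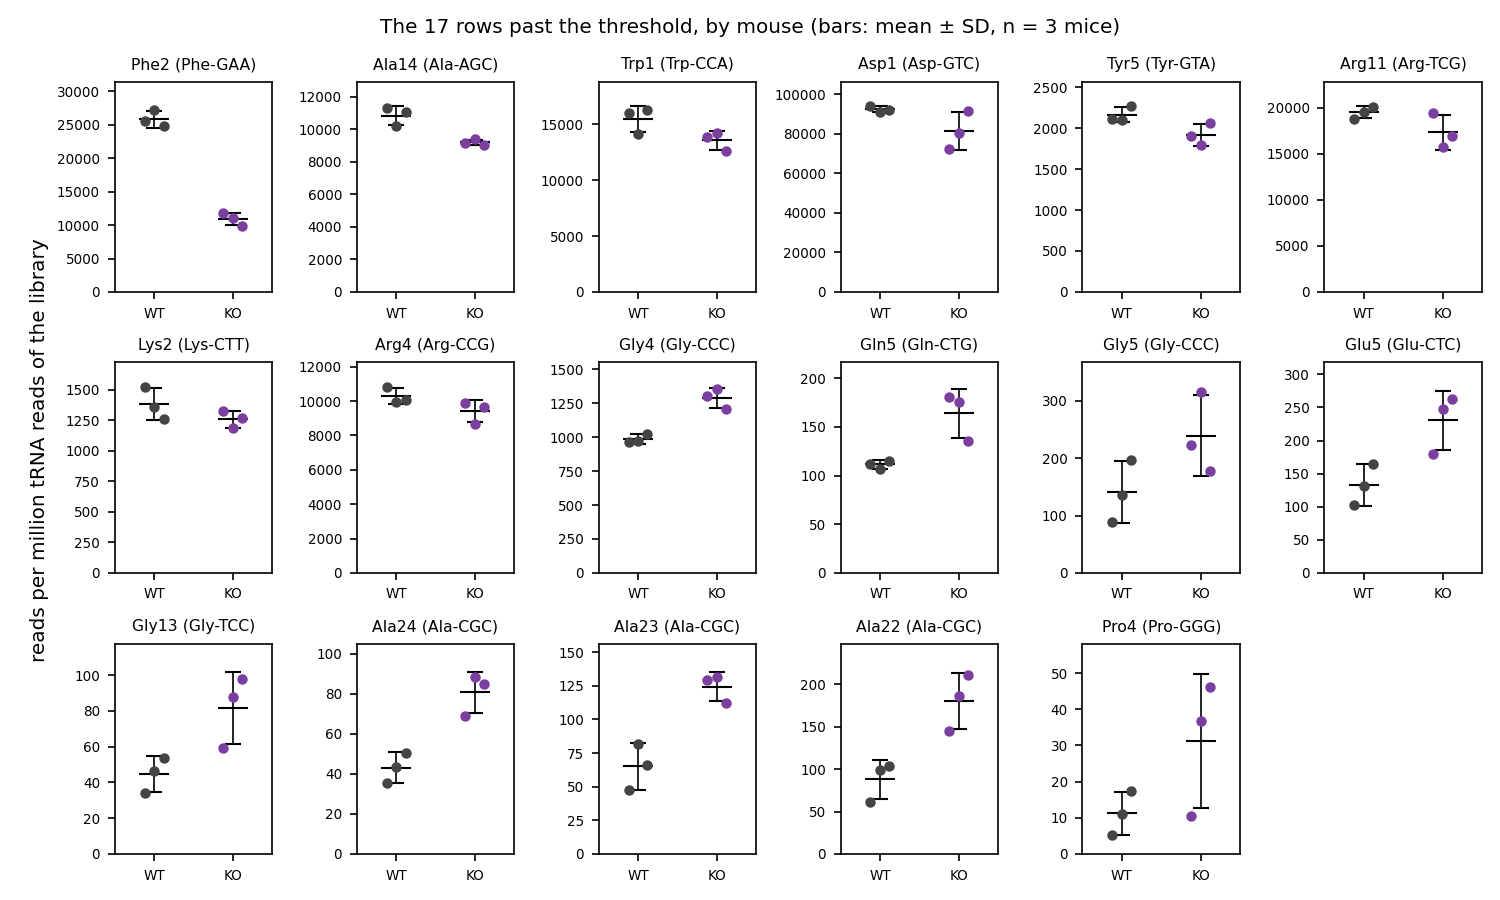
RPM (reads per library of 1000000 tRNA reads) for each of the 17 rows past the threshold, with a point for each mouse and bars for the mean ± SD of 3 mice, on axes that start at 0. Phe2, Ala14, Tyr5 and Arg4 were lower in every KO mouse than in any WT mouse, and Asp1, Trp1, Arg11 and Lys2 overlapped.

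The rows above their families were scarce members beside a dominant row. Ala-CGC gave the clearest case: Ala18 held 98.7% ± 0.260 (SD) of the WT family and 97.6% ± 0.300 of the KO family (n = 3, exact permutation p = 0.1), and the other 4 tested rows were all above the family. Ala22 measured 61.1, 99.5 and 103 RPM in WT and 144, 186 and 211 in KO. Every KO mouse was above every WT mouse, and Ala22 rose by 0.92 (SE 0.18, adjusted p = 0.000897), or by 1.03 relative to its family (SE 0.17, adjusted p = 1.97e-05, edgeR). Its share of Ala-CGC went from 0.461% ± 0.124 to 0.949% ± 0.211 (SD, n = 3, exact permutation p = 0.1).

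Ala23 measured 47.2, 81.9 and 66.0 RPM in WT and 129, 132 and 112 in KO, and rose by 0.82 (SE 0.20, adjusted p = 0.00592, edgeR). Ala24 measured 35.2, 43.6 and 50.7 in WT and 69.0, 88.3 and 85.0 in KO, and rose by 0.78 (SE 0.23, adjusted p = 0.0202, edgeR). Neither overlapped between genotypes. Ala21 was at 0.59 (SE 0.22, adjusted p = 0.0665) and above its family by 0.70 (SE 0.23, adjusted p = 0.0234, edgeR). Ala18 was at -0.13 (SE 0.07) in the fit of rows. The family sum was at -0.04 (SE 0.06) and did not pass, but its fit used other TMM factors, so the 2 values are not directly comparable. In mean RPM, Ala18 was lower by 221 in KO and the whole family by 1.73. The rise of the scarce rows was thus not visible in the anticodon sum.

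Glu5, a scarce row of Glu-CTC, measured 102, 131 and 165 RPM in WT and 179, 248 and 264 in KO, without overlap. It rose by 0.68 (SE 0.16, adjusted p = 0.00444) and by 0.75 relative to its family (SE 0.16, adjusted p = 0.000917, edgeR), whose leading row Glu1 was at -0.08. The first call was lost without WT mouse 2 (0.68, adjusted p = 0.101) and without KO mouse 3 (0.58, adjusted p = 0.052), and the second held in all 12 alternatives.

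In the glycine families, Gly-CCC held 2 of the higher rows beside a leading row, Gly3, at -0.07. Gly4 measured 961, 970 and 1025 RPM in WT and 1301, 1356 and 1208 in KO, with no overlap, and rose by 0.27 (SE 0.08, adjusted p = 0.0154, edgeR). It was the only higher row with more than 1000 mean reads. Gly5 measured 89.0, 135 and 197 in WT and 223, 316 and 179 in KO. KO mouse 3 was lower than WT mouse 3. Gly5 rose by 0.64 (SE 0.19, adjusted p = 0.0203, edgeR), a call that DESeq2 did not make (0.65, adjusted p = 0.261, the highest over the 15 alternatives, with 1.83e-07 the lowest). Gly4 made up 14.8% ± 0.398 of the family in WT and 17.9% ± 1.68 in KO (exact permutation p = 0.1), and Gly5 2.11% ± 0.786 and 3.32% ± 0.890 (exact permutation p = 0.2; SD, n = 3). Gly13, of Gly-TCC, measured 33.9, 46.2 and 53.9 in WT and 59.0, 87.6 and 97.9 in KO, and rose by 0.75 (SE 0.24, adjusted p = 0.0355, edgeR).

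Gln5, of Gln-CTG, measured 112, 107 and 115 RPM in WT and 181, 175 and 135 in KO, and rose by 0.44 (SE 0.15, adjusted p = 0.0492, edgeR), a call lost in 8 of 15 alternatives. Pro4 was the only tested row of Pro-GGG and had few reads, 8, 17 and 27 in WT and 21, 56 and 86 in KO. It rose by 1.33 (SE 0.46, adjusted p = 0.0448, edgeR), with overlapping groups, and the call was lost in 7 of 14 alternatives.

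Several rows differed from their family without passing the row test. Asp3 was above Asp-GTC by 0.91 (SE 0.24, adjusted p = 0.00633, edgeR), so that it moved apart from Asp1, which fell. It measured 37.2, 46.2 and 50.7 RPM in WT and 58.5, 79.0 and 85.0 in KO, with no overlap, and its share of the family was 0.0484% ± 0.00793 (SD) in the WT group and 0.0905% ± 0.00866 in the KO group (n = 3, exact permutation p = 0.1). Ala10 was above Ala-AGC by 1.11 (SE 0.29, adjusted p = 0.00633, edgeR), with 14, 20 and 19 reads in WT and 39, 36 and 42 in KO. Ala32, a row of Ala-TGC, was above its family by 0.35 (SE 0.12, adjusted p = 0.0331, edgeR), and its call was lost in 6 of 12 alternatives.

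The largest differences rested on the fewest reads. Lys4, of Lys-CTT, had 3, 7 and 2 reads in WT and 8, 15 and 26 in KO, and was above its family by 1.67 (SE 0.56, adjusted p = 0.0263, edgeR). Lys24, of Lys-TTT, had 2, 4 and 7 reads in WT and 11, 20 and 18 in KO, and was above its family by 1.59 (SE 0.53, adjusted p = 0.0281, edgeR). Met6, of Met-CAT, had 9, 10 and 9 reads in WT and 14, 27 and 36 in KO, and was above its family by 1.27 (SE 0.39, adjusted p = 0.0186, edgeR). Limma-voom called none of these 3. Cys1, the only tested Cys-ACA row, had the largest log2 fold change of all rows, 1.83 (SE 0.74, adjusted p = 0.0936, edgeR), with 3, 2 and 8 reads in WT and 5, 30 and 23 in KO. Lys4, Lys24 and Cys1 had fewer than 10 reads in every WT library, and Met6 had 9 or 10. These rows reached the mean of 10 reads only through the KO libraries, so their rise is tied to the filter. The 14 rows above their families include Lys4, Lys24 and Met6.

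Leaving out single mice ended many of these calls. The row test lost Ala24 without WT mouse 1, WT mouse 2, KO mouse 2 or KO mouse 3 (adjusted p 0.051 to 0.113, edgeR), Gly4 without WT mouse 1, WT mouse 2 or KO mouse 2 (0.0556 to 0.0973), and Gly5 without the same 3 mice (0.0604 to 0.204, with a log2 fold change down to 0.40). It lost Gly13 and Pro4 without WT mouse 1, WT mouse 2, KO mouse 2 or KO mouse 3 (0.119 to 0.153 and 0.109 to 0.339), and Gln5 without any mouse but KO mouse 3 (0.0887 to 0.19). Arg4 was also lost without WT mouse 1 or WT mouse 2 (0.109 and 0.103), Arg11 without WT mouse 2 or KO mouse 3 (0.15 and 0.052), Asp1 without KO mouse 1 (0.0614) and Lys2 without KO mouse 3 (0.11). The test against the family lost Ala10 without KO mouse 2 (0.0689) and Ala21 without WT mouse 2, KO mouse 2 or KO mouse 3 (0.0876 to 0.103). It lost Gly5 without any mouse but WT mouse 3 or KO mouse 3 (0.0845 to 0.123), Gly13 without any but WT mouse 3 or KO mouse 1 (0.0529 to 0.0763), Gln5 without WT mouse 1, WT mouse 2 or KO mouse 2 (0.0519 to 0.112), Ala32 without any but WT mouse 1 or KO mouse 1 (0.0605 to 0.195), Lys4 without WT mouse 1 or WT mouse 3 (0.119 and 0.0983), Lys24 without WT mouse 1 or WT mouse 2 (0.141 and 0.119), and Met6 without any mouse but KO mouse 1 (0.0529 to 0.19). Lys4 and Lys24 fell short of 10 mean reads without KO mouse 2 or KO mouse 3 and were not tested there.

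**Figure D3:**
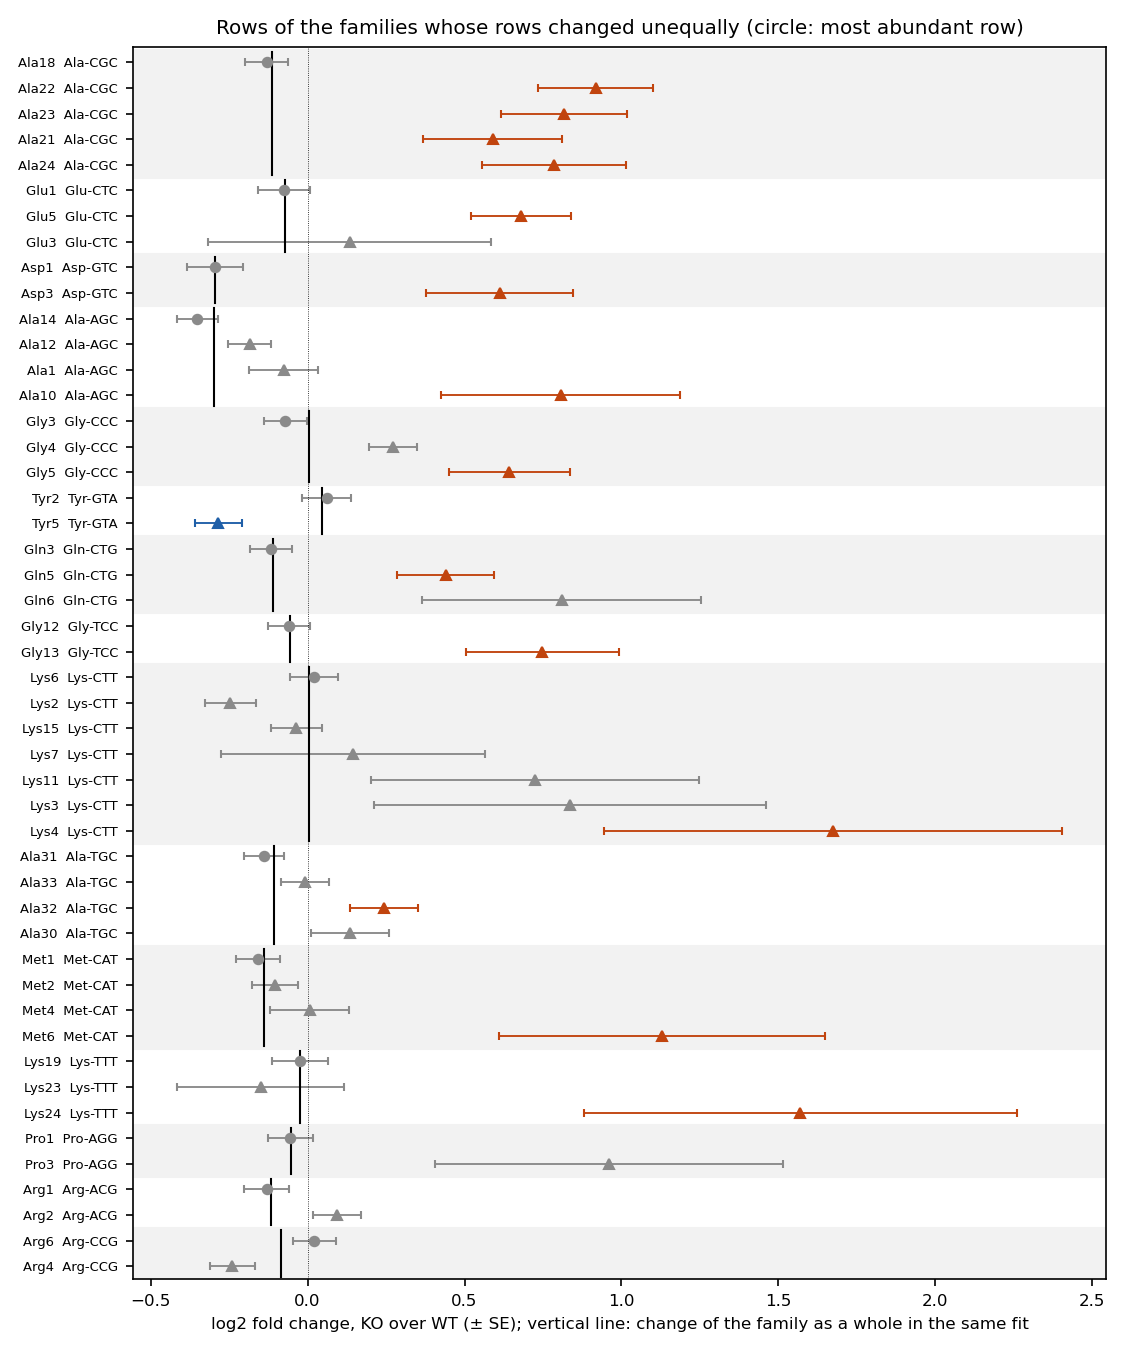
Log2 fold change (KO over WT, ± SE) of the rows in the 15 families whose rows changed unequally, with the family's change in the same fit as a vertical line. Circles are leading rows, and coloured triangles are the 15 rows that differed from their family. Tyr5 is the only one of these below its family, and the other 14 lie above.

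The scarce rows are described here by a split at 1000 mean reads that was chosen after the values were seen, so the values carry no test. Over all 105 tested rows, 8.57% were higher and 7.62% lower, 51 values were positive and the median was -0.01. Of the 55 rows that do not lead a family, 35 had fewer than 1000 mean reads: 7 were higher, none lower, and 31 had a positive log2 fold change, with a median of 0.52. The 20 with more reads had 1 higher and 4 lower, 7 positive values and a median of -0.06. The 50 leading rows had 1 higher and 4 lower, 13 positive values and a median of -0.06. Scaled to total reads, 34 of the leading rows and 34 of the 35 scarce rows were above 0. The 35 scarce rows include some that reached the mean of 10 reads only through the KO libraries, among them Lys4, Lys24 and Met6. The positive sign of such rows is tied to the filter. With a filter at a mean of 100 reads or more, 15 of the scarce rows were tested and 14 were positive, with a median of 0.64.

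Together, the 35 scarce rows measured 2091, 2225 and 2419 RPM in WT and 2944, 3283 and 3059 in KO. The groups did not overlap (2245 ± 165 against 3096 ± 172, SD, n = 3). Depth was 1505291, 1537660 and 1559702 reads in the WT libraries and 2000422, 1518177 and 1859515 in the KO libraries. KO mice 1 and 3 were thus deeper than any WT mouse, and KO mouse 2 lay within the WT range. KO mouse 2 also had the highest summed level of the scarce rows, 3283 RPM. The part of depth in the result was not tested. How the counting shared reads between near-identical rows is not known, so a scarce row beside an abundant one of like sequence is uncertain as a separate tRNA.

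Sets of families that share a known modification or structure were counted in the same way. The wider set of families with a known or proposed FTSJ1 site added Arg-TCG, Arg-CCG, Gln-CTG, Cys-GCA and Gly-CCC to the wobble families. It held 21 tested rows, of which Phe2, Trp1, Arg4 and Arg11 were lower and Gln5, Gly4 and Gly5 higher, with a median of -0.00 beside -0.01 over all rows, where 16.2% of rows passed, 8.57% higher and 7.62% lower. Within each of the families Arg-TCG, Arg-CCG, Gln-CTG and Gly-CCC, at least 1 row passed and the leading row did not.

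Families with inosine at the wobble base held 16 tested rows, of which Ala14 was lower and none was higher, with a median of -0.07, a count of lower rows near the 7.62% over all rows. The same shares over all rows, 8.57% higher and 7.62% lower, stand beside the counts that follow. The queuosine families, read through a modified wobble guanosine, held 6, of which Asp1 and Tyr5 were lower, with a median of -0.15. Families with uridine at the wobble base, a site of several modifications, held 27, of which Gly13 was higher and Arg11 lower, with a median of -0.02. The serine, leucine and selenocysteine families with a long variable arm held 14 tested rows and the methionine families 5, and none of these rows passed (medians -0.01 and -0.05). With the mouse number as a block, Leu9 (adjusted p = 0.0367) and Met6 (adjusted p = 0.00827) were called higher by edgeR. Met6 reached the filter on mean reads only through the KO libraries, so its rise is tied to that filter. The Arg-TCT rows, a family with a brain-enriched member in mice, were at -0.09 for Arg14, -0.03 for Arg15, -0.08 for Arg16 and 0.10 for Arg18, none past the test, and the row names do not say which of them is the brain-enriched tRNA.

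The same mice also gave libraries of tRNA held in ribosomes and of tRNA fragments, which were fitted apart. In ribosome-contained tRNA 4 of 104 rows passed (3.85%), and Phe2 and Arg11 were the rows lower both there and in total tRNA. Phe2 fell by 0.75 in ribosomes (SE 0.15, adjusted p = 0.00139, edgeR) and Arg11 by 0.60 (SE 0.13, adjusted p = 0.00155, edgeR), while Arg12 was at -0.18 there (SE 0.12). Arg4 was at -0.31 (SE 0.13) and Ala14 at -0.31 (SE 0.13) in ribosomes, without passing. Trp1 was at 0.00 (SE 0.14).

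Of the 35 scarce rows, 31 were tested in ribosomes and none passed, with 14 positive values and a median of -0.05 beside 0.01 over all rows there. Ala22 was at -0.52 (SE 0.27), Ala23 at -0.33 (SE 0.27), Ala24 at -0.62 (SE 0.30) and Glu5 at -0.53 (SE 0.25) in ribosomes, all on the other side of 0 from total tRNA, while Gln5 was at 0.18 (SE 0.24), Gly5 at 0.24 (SE 0.24) and Gly13 at 0.02 (SE 0.29). The summed level of all 35 scarce rows in ribosomes was 6375 ± 1837 RPM in WT and 5570 ± 1254 in KO (SD, n = 3). By mouse it was 5083, 8477 and 5564 RPM in WT and 4718, 4983 and 7010 in KO, so that the groups overlapped. WT mouse 2 had the most ribosome reads of Ala22, Ala23, Ala24 and Glu5 of any mouse. For Ala24 these were 351, beside 101 and 210 in WT mice 1 and 3. The difference between library types was not tested.

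In fragment libraries 10 of 81 rows passed (12.3%), and 4 of these were rows that passed in total tRNA, each with the opposite sign. Phe2 rose by 2.08 in fragments (SE 0.15, adjusted p = 5.72e-07), Trp1 by 1.21 (SE 0.07, adjusted p = 1.99e-07) and Ala14 by 0.37 (SE 0.07, adjusted p = 0.0031, all edgeR). Gln5, higher in total tRNA, fell by 0.68 in fragments (SE 0.11, adjusted p = 0.000925, edgeR), and its leading row Gln3 fell by 0.47 (SE 0.05, adjusted p = 2.21e-05, edgeR). Arg4 was at 0.34 in fragments (SE 0.11, adjusted p = 0.0545, edgeR) and Arg11 at -0.27 (SE 0.14).

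**Figure D4:**
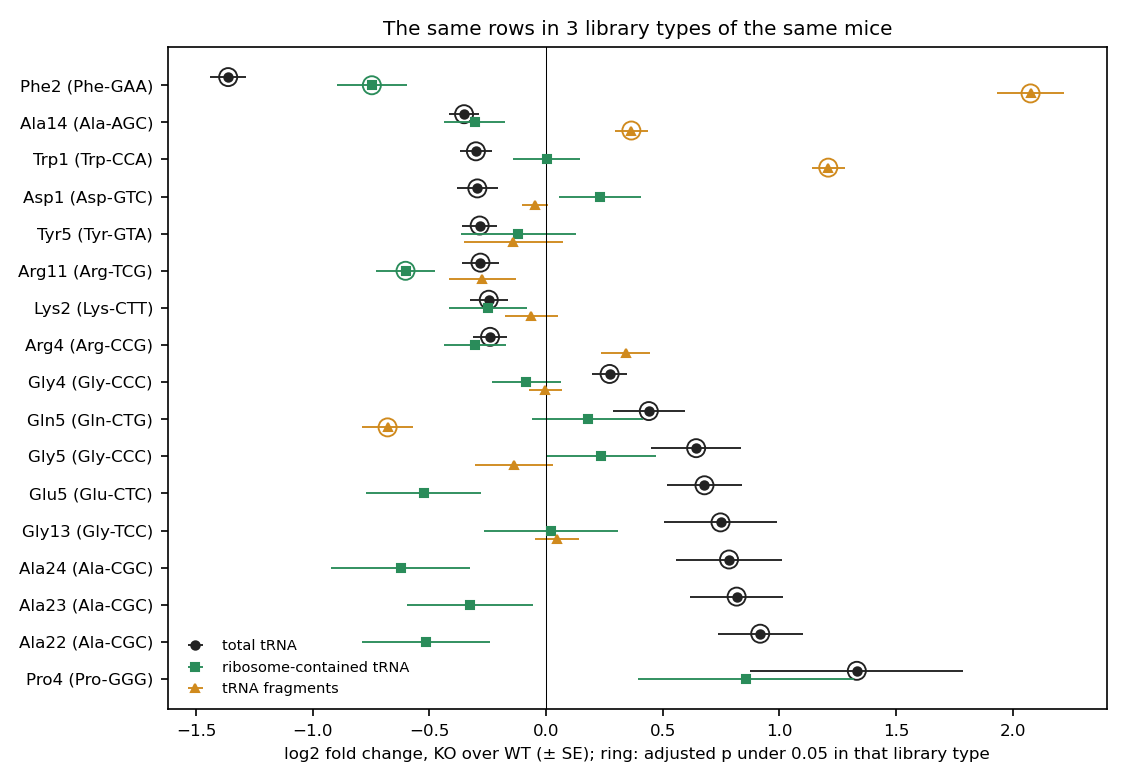
Log2 fold change (KO over WT, ± SE) of the 17 rows past the threshold in total tRNA, beside the same rows in ribosome-contained tRNA and in tRNA fragments of the same mice. Rings mark an adjusted p under 0.05 in that library type, and a missing point means that the row had too few reads there. Phe2, Trp1 and Ala14 are below 0 in total tRNA and above 0 in fragments.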

How the data were processed

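The authors deposited 1 table of counts, whole read numbers per the file headers, for 147 tRNA rows and 18 libraries. Per the labels' protocols, tRNA was cut from a gel, treated with AlkB, an enzyme that clears methyl groups from bases (not from ribose), and given a 3′ adaptor. The submitters' processing notes name Bowtie2. The Bowtie2 version and options, the build, the set of tRNA sequences and the way a read with several matches was counted are each not given in the sources consulted here. No molecular identifier or spike-in was used here, so values are relative to the other tRNAs and may hold PCR copies. One ribosome-contained column headed K3 was taken as KO mouse 3. Replicates are separate mice.

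Counts of rows with a mean of 10 or more reads were fitted in edgeR 4.0.16 (R 4.3.3) with TMM factors and its quasi-likelihood test, and p-values were adjusted over all rows by Benjamini-Hochberg with a threshold of 0.05. Standard errors are the log2 fold change over the square root of F. Rows were set against their family with edgeR's diffSpliceDGE, and families were tested as sums. The common biological coefficient of variation was 0.0754. Family shares had a two-sided exact permutation test. The tests were tried on simulated data in which changes were placed only in rows with a mean of 100 or more reads. Those simulations do not cover changes placed in scarcer rows. Alternatives were DESeq2 1.42.0, limma 3.58.1, other scalings and filters, leaving out each mouse and a block. Plots used matplotlib 3.10.9.

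The rows named are all rows past the row test, all tested rows of families past the family test and of the FTSJ1 wobble families, the rows furthest from their family, their leading rows, the extremes, the rows at the threshold, the rows of largest change in each list, and the Arg-TCT rows. The rows, the lists and the tests were chosen with earlier results of these data known.

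The labels number the mice 1 to 3 in both genotypes and name no shared litter or day. Deviations of same-numbered mice from their group means correlated over the 105 rows at 0.60, 0.18 and 0.20. Over the 66 rows with 1000 or more reads the values were -0.02, -0.12 and -0.09. Over the 105 rows, only the mice numbered 1 were each other's best match among same-numbered mice, while WT mouse 3 and KO mouse 2 matched each other best. Over the 66 rows no same-numbered mouse was the best match. The block by mouse number therefore rests on a pairing that neither the labels nor these correlations establish.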

Additional observations from a re-analysis of the deposited data

How the results depend on the processing

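Phe2, Ala14, Ala22 and Ala23 passed the row test in all 15 alternatives, and Ala22, Ala23, Asp3 and Glu5 passed the within-family test in all 12. Scaling to total reads gave 17 higher and 2 lower rows, 89.5% higher beside 52.9% with TMM, and 2 families in place of 4; a mean of 100 reads or more gave 4 lower rows. Using the anticodon-sum TMM factors (family factors), chosen after seeing the data, gave 14 higher and 4 lower rows, the lower being Ala14, Phe2, Trp1 and Tyr5. With the replicate block 19 rows were higher, and every one of the 17 rows called without it was still called. The block added Ala10, Ala21, Asp3, Cys1, Gln6, Leu9, Lys4, Lys24, Met6 and Pro3. Among these, Cys1, Lys4, Lys24 and Met6 reached the filter on mean reads only through the KO libraries. Their rise, and with it part of the larger count, is tied to that filter. In the within-family test the block dropped Gly5 and gave 18 rows, and it changed no call on the 4 families but gave 6. Leaving out each mouse gave 2 to 16 higher and 3 to 8 lower rows, 5 to 16 rows in the within-family test and 1 to 9 families. The higher and lower rows numbered 3 and 5 when WT mouse 1 was left out, 2 and 3 for WT mouse 2, 9 and 8 for WT mouse 3, 16 and 8 for KO mouse 1, 3 and 3 for KO mouse 2, and 6 and 7 for KO mouse 3. The within-family count dropped to 9 with WT mouse 2 or KO mouse 3 left out and to 5 with KO mouse 2 left out. The family count was 1 with WT mouse 1 or WT mouse 3 left out, and 9, 2 and 7 with KO mice 1, 2 and 3 left out in turn. Of the 35 scarce rows, 28 to 32 were above 0 when a mouse was left out, 34 with total reads and 33 with the family factors. These 35 include rows such as Lys4, Lys24 and Met6, whose positive sign is tied to the filter. Of the 50 leading rows, 13 were above 0 with TMM and 34 with total reads. DESeq2 made 9 higher and 12 lower calls and limma-voom 6 and 8.

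The sign of rows near 0, uncalled in every such case, turned as follows. With total reads the log2 fold change was 0.037 for Ala1, 0.012 for Arg12, 0.038 for Glu1, 0.056 for Gly12, 0.044 for Gly3, 0.021 for Gly6, 0.041 for Leu3, 0.089 for Lys19 and 0.060 for Pro1. With the family factors it was 0.00035 for Glu1, 0.017 for Gly12, 0.0055 for Gly3, 0.0030 for Leu3, 0.051 for Lys19 and 0.022 for Pro1. Without a filter it was -0.00240 for Arg6 and -0.0047 for Lys6, and with a mean of 100 reads 0.028 for Lys19. Leaving out a mouse gave -0.0063 to 0.083 for Arg6, -0.11 to 0.0027 for Gly3, -0.11 to 0.057 for Lys19, -0.039 to 0.12 for Lys6 and -0.040 to 0.15 for Ser11. The cause was not tested. Rows under 100 reads are limited by depth: Lys4 and Lys24 had 2 to 8 reads in some libraries.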
